A study of Mus musculus with 6 samples.

Results

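A set of 10 genes of microbial sensing was followed in the inflamed mouse colon: the Toll-like receptors *Tlr1*, *Tlr2*, *Tlr4*, *Tlr5* and *Tlr9*, their adaptor *Myd88*, the NOD receptors *Nod1* and *Nod2*, and the inflammasome receptors *Nlrp3* and *Nlrp6*. They were taken by symbol from a table of 27202 genes, and all 10 were among the 16246 genes with a mean normalized count of at least 10. RNA had been sequenced from the colon of 3 *Nedd4l* fl/fl VillinCre mice, labelled as *Nedd4l* knockout, and 3 *Nedd4l* fl/fl littermates, labelled WT. The groups answer whether loss of the ubiquitin ligase NEDD4L from the gut epithelium goes with other transcript levels during colitis. Every mouse, controls included, carried the floxed alleles on a C57BL/6J background, was 8 to 10 weeks old and had, according to the labels, drunk 2% dextran sodium sulfate (DSS), which injures the colonic epithelium, for 7 days. No untreated colon was analysed here. The Villin promoter drives Cre in intestinal epithelial cells (IECs), while colon tissue also holds leukocytes and stroma that keep *Nedd4l*, and in such bulk tissue fewer cells of a type and less RNA per cell cannot be told apart.

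Toll-like receptors (TLRs) are membrane proteins that bind conserved microbial molecules either at the cell surface or in endosomes, and most of them signal through the adaptor MYD88 to the transcription factor NF-κB. NOD1 and NOD2 sense fragments of bacterial peptidoglycan in the cytosol and signal through the kinase RIPK2, and NLRP3 assembles an inflammasome that activates caspase-1 and matures IL-1β. In the colon these receptors are shared between epithelium and leukocytes, so a transcript level in whole tissue sums over both.

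The values are normalized counts, in which each library's read counts were scaled by its own size factor. In units of the smallest step between values, which lay between 0.900 and 1.11 normalized counts, library totals ran from 14914367 to 17547270. *Nedd4l* was at 476, 942 and 566 normalized counts in *Nedd4l* fl/fl VillinCre replicates 1 to 3 and at 1241, 1271 and 1266 in the littermates, lower in all 3 deleted libraries, with a log2 fold change of −0.99 (SE 0.24, limma adjusted p = 0.225). *Nedd4l* fl/fl VillinCre replicate 2 kept the most *Nedd4l* and correlated less with its own genotype (mean r = 0.966 over genes) than with the littermates (0.977). Replicate 1 of that genotype had the lowest mean r of all libraries, with its own genotype (0.963) and with the littermates (0.948). Replicate 3 was at 0.975 and 0.973. A low mean r with its own genotype therefore does not single out replicate 2, and results are also given without single libraries where that matters. Summed epithelial marker levels (10 genes, among them *Epcam* and *Vil1*) overlapped between genotypes, from 241259 to 273707 in *Nedd4l* fl/fl VillinCre colon and from 255875 to 276604 in littermates, and 0 of the 10 markers had an unadjusted p under 0.05. The labels describe the replicates as separate samples and do not tie replicate numbers across genotypes, so p-values measure the spread between these samples.

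Of the 10 genes, 8 had a higher mean and 2, *Tlr1* and *Tlr5*, a lower mean in *Nedd4l* fl/fl VillinCre colon, and 50.2% of all tested genes had a higher mean. The median log2 fold change was 0.29, against 0.0013 over all genes tested. With limma none of the 10 reached an adjusted p under 0.05, as 0% of all tested genes did, and 4 of the 10 had an unadjusted p under 0.05 (*Tlr2*, *Nod1*, *Nlrp3* and *Myd88*), all in the higher direction, in which 6.91% of all tested genes fell. In 5 genes, the same 4 and *Nod2*, all 3 *Nedd4l* fl/fl VillinCre libraries lay above all 3 littermate libraries, which 10.5% of tested genes did. Separated genes stay so by construction when a library is left out, and further genes can then become separated. Those were *Tlr1* and *Tlr5*, both lower, without littermate replicate 2 (15.3% of all genes lower), *Tlr4* higher without *Nedd4l* fl/fl VillinCre replicate 2 (18.5% of all genes higher), *Nlrp6* higher without *Nedd4l* fl/fl VillinCre replicate 1 (15.1%) and *Tlr9* higher without littermate replicate 3 (15.4%). With 3 against 3 libraries, the exact permutation test cannot go below p = 0.10, the two-sided value that each of the 5 separated genes reached.

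**Figure D1:**
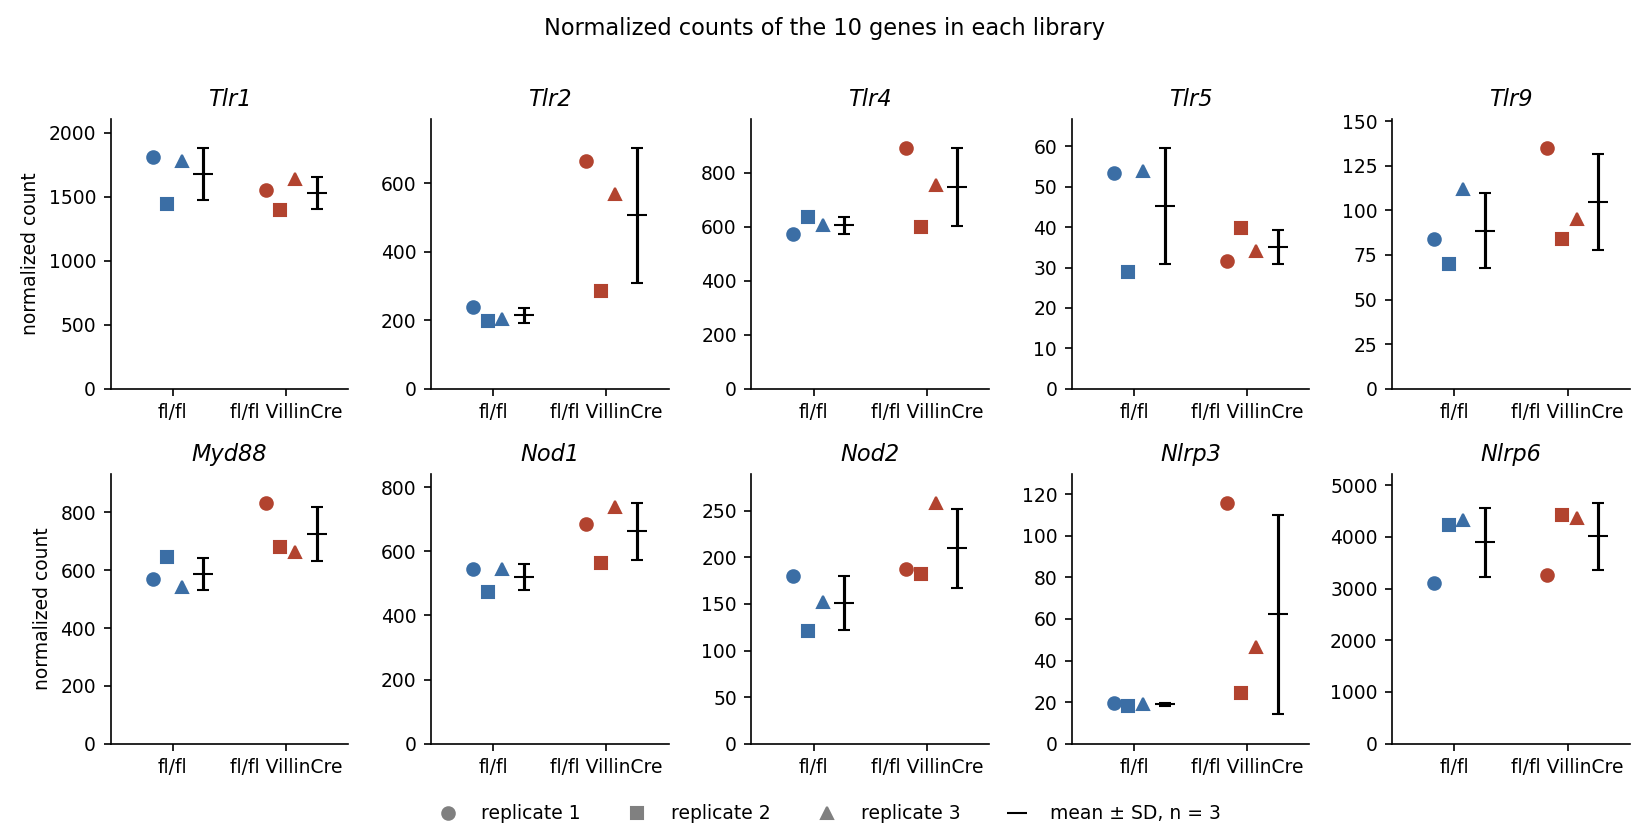
Normalized counts (y axes, each starting at 0) of the 10 genes in the 3 *Nedd4l* fl/fl libraries (blue) and the 3 *Nedd4l* fl/fl VillinCre libraries (red), with symbols for replicates and black bars for the mean ± SD (n = 3). *Tlr2*, *Myd88*, *Nod1*, *Nod2* and *Nlrp3* show no overlap between genotypes, and the red points of *Tlr2* and *Nlrp3* are spread far more widely than the blue ones.

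Over the 6 libraries *Tlr2* and *Nlrp3* had the largest fold differences of the 10, and *Nlrp6* had the smallest. The bases just upstream of these 3 genes, picked by their fold differences, are shown with matches to the NF-κB consensus set in capitals. *Nlrp6* has no match, and neither do the windows of the separated genes *Myd88*, *Nod1* and *Nod2*, which are not printed. The only *Myd88* window surrounds a RefSeq start site 1393 bases inside the gene as deposited. Bases upstream of its deposited start were therefore not searched. The RefSeq windows of 250 bases before to 50 after a start site (GRCm38.p6) were searched on both strands, and only the bases upstream of the start sites in both RefSeq and the deposited table are printed, 5′ to 3′. The *Tlr2* stretch lies on the minus strand at chr3:83841768-83841858, the *Nlrp3* stretch on the plus strand at chr11:59541319-59541567 and the *Nlrp6* stretch on the plus strand at chr7:140920652-140920901.
Tlr2: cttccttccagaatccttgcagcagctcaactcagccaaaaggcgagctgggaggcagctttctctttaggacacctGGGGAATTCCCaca
Nlrp3: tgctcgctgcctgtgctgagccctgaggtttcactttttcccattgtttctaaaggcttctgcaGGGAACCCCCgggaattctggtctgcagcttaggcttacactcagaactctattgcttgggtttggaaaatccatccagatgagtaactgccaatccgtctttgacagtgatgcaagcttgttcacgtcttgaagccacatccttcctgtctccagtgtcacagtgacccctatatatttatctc
Nlrp6: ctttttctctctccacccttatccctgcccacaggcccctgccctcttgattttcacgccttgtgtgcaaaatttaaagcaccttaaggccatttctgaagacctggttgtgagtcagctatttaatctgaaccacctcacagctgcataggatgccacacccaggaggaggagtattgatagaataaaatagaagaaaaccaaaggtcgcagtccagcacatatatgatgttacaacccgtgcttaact

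Windows were found for 9 of the 10 genes, 12 in all, and *Tlr4* had none. The NF-κB consensus matched 2 of the 12 windows, that of *Tlr2* and the first of *Nlrp3*, and 16.0% of all 32851 windows in the table held it. The share among the 12 is thus close to that of all windows. In the *Tlr2* window 5 overlapping matches formed 2 separate stretches, of which the printed bases hold the upstream one. GAGGAA, the core bound by the myeloid factor PU.1, matched 3 of the 12 windows (in *Tlr1*, *Tlr9* and the second of *Nlrp3*) against 28.3% of all windows. TATAAA matched 1, that of *Myd88*, against 13.6%. The motifs were picked after the values had been seen, and a match describes letters in a window, not a bound site.

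TLR2 recognises bacterial lipoproteins as a heterodimer with TLR1 or TLR6. *Tlr2* (ENSMUSG00000027995, chr3:83836272-83841767, minus strand) was at 666, 286 and 569 normalized counts in *Nedd4l* fl/fl VillinCre replicates 1 to 3 and at 240.0, 199 and 205 in the littermates. The littermates lay close together and replicate 2 was the *Nedd4l* fl/fl VillinCre library nearest to them, without overlap. The means were 507 ± 197 and 214 ± 22.3 (SD, n = 3 each), a ratio of 2.37. The log2 fold change of 1.15 (SE 0.31, 95% interval 0.42 to 1.89) had a limma adjusted p of 0.256, and 1.96% of tested genes had a larger one. Without *Nedd4l* fl/fl VillinCre replicate 2 it was 1.52 with a limma adjusted p of 0.0196, where 0.75% of all genes were called. With libraries weighted by their agreement with the fit it was 1.33 with a limma adjusted p of 0.0260, where 3.88% were. The weights were 0.414, 0.562 and 4.39 for *Nedd4l* fl/fl VillinCre replicates 1 to 3, so that estimate rests mostly on replicate 3 of this genotype. Littermate weights were 0.921, 0.792 and 1.34. Leaving out *Nedd4l* fl/fl VillinCre replicate 1 gave 0.91 (adjusted p = 0.288), and leaving out any 1 of the other 4 libraries gave 1.03 to 1.24 with adjusted p-values from 0.383 to 0.513. *Nedd4l* fl/fl VillinCre replicate 2, without which *Tlr2* passed, is the deleted library nearest to the littermates. *Tlr2* was the 1 gene of the 10 that passed the threshold under any alternative, in 2 of 14.

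Neither partner of TLR2 was separated between genotypes. *Tlr1* (chr5:64924679-64933563, minus strand) was at 1556, 1397 and 1637 normalized counts in *Nedd4l* fl/fl VillinCre colon and 1813, 1441 and 1782 in littermates, overlapping sets with replicate 2 lowest in each genotype. Its log2 fold change was −0.13 (SE 0.11, 95% interval −0.39 to 0.13, limma adjusted p = 0.613). With 1 library left out it ran from −0.24, without littermate replicate 2, to −0.066, without *Nedd4l* fl/fl VillinCre replicate 2, and was also closer to 0 without littermate replicate 1 (−0.070) or 3 (−0.082). *Tlr6* was at 70.9, 26.5 and 42.3 against 30.6, 34.2 and 52.9 normalized counts, with a log2 fold change of 0.17 (limma adjusted p = 0.863). *Tlr1* and *Tlr6* are close paralogs, and 13.6% of the 50-base stretches of *Tlr1* exons also occur in *Tlr6*, so the division of reads between them is uncertain. Set against *Tlr1* in the same library and per length of exon, the *Tlr2* level was 0.475, 0.227 and 0.386 of that of *Tlr1* in *Nedd4l* fl/fl VillinCre colon and 0.147, 0.153 and 0.127 in littermates, again without overlap.

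TLR4 is the receptor for lipopolysaccharide, which it binds with MD-2, encoded by *Ly96*, after delivery by CD14. *Tlr4* (chr4:66827584-66930284, plus strand) was at 889.5, 599 and 753 normalized counts in *Nedd4l* fl/fl VillinCre replicates 1 to 3 and at 574, 636 and 606 in littermates. Replicates 1 and 3 lay above all littermates while replicate 2 fell among them. The log2 fold change was 0.29 (SE 0.14, 95% interval −0.046 to 0.62, limma adjusted p = 0.408), 0.44 without *Nedd4l* fl/fl VillinCre replicate 2 and 0.15 without replicate 1. *Ly96* was at 96.8, 80.7 and 73.2 against 73.1, 63.9 and 69.9 normalized counts, separated by a narrow gap, with a log2 fold change of 0.27 (limma adjusted p = 0.561). *Cd14*, at 0.14 (limma adjusted p = 0.643), overlapped between genotypes. *Tlr4* exceeded *Tlr2* per length of exon in every littermate (1.30, 1.74 and 1.61 times) and in only 1 *Nedd4l* fl/fl VillinCre library, replicate 2 (0.724, 1.14 and 0.717 times).

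TLR5 binds bacterial flagellin. *Tlr5* (chr1:182954788-182976044, plus strand) was low in all libraries, at 31.6, 39.8 and 34.0 normalized counts in *Nedd4l* fl/fl VillinCre colon and 53.3, 28.8 and 53.9 in littermates. Littermate replicate 2 was the lowest of the 6 and the other littermates the highest. The log2 fold change of −0.31 (SE 0.31, 95% interval −1.03 to 0.41, limma adjusted p = 0.665) leaves either direction within its interval. It was −0.60 without littermate replicate 2, and −0.17 and −0.16 without littermate replicates 1 and 3. Its counterpart for intracellular flagellin, *Nlrc4*, was at 0.037 (limma adjusted p = 0.916).

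TLR9 detects unmethylated CpG DNA in endosomes, where the chaperone UNC93B1 delivers it. *Tlr9* (chr9:106222598-106226883, plus strand) was at 135, 84.0 and 94.9 normalized counts in *Nedd4l* fl/fl VillinCre colon and at 83.9, 70.2 and 112 in littermates. The sets overlapped and replicate 1 of the *Nedd4l* fl/fl VillinCre mice was the highest. A log2 fold change of 0.23 (SE 0.26, 95% interval −0.37 to 0.83, limma adjusted p = 0.697) became 0.037 without that replicate and 0.081 without littermate replicate 2. *Unc93b1* was at 0.12 (limma adjusted p = 0.538), with overlap.

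MYD88 links all of these receptors to the IRAK kinases and TRAF6. *Myd88* (chr9:119335934-119341411, minus strand) was at 834, 679 and 663 normalized counts in *Nedd4l* fl/fl VillinCre replicates 1 to 3 and at 569.8, 647 and 541 in littermates. The genotypes did not overlap, but the lowest *Nedd4l* fl/fl VillinCre library and the highest littermate were close. Means of 725 ± 94.4 and 586 ± 54.6 (SD, n = 3 each) gave a log2 fold change of 0.30 (SE 0.12, 95% interval 0.024 to 0.58, limma adjusted p = 0.335). Its exons share 290 bases, 11.3% of their length, with *Acaa1a* on the opposite strand, and whether counting used strand is not given in the sources used here. *Acaa1a* was slightly lower in *Nedd4l* fl/fl VillinCre colon, at 1448 ± 104 against 1571 ± 107 normalized counts. Of the proteins next to MYD88, *Traf6* was separated, at 898, 693 and 728 against 671, 690.0 and 557 normalized counts (log2 fold change 0.27, limma adjusted p = 0.393). *Tirap*, which bridges TLR2 and TLR4 to MYD88, was at 0.21, *Irak4* at 0.080 and *Ticam1*, the adaptor of the MYD88-independent branch, at 0.16, all 3 with overlap and limma adjusted p-values from 0.395 to 0.756.

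Both cytosolic peptidoglycan sensors were separated between genotypes, and neither passed the adjusted threshold. *Nod1* (chr6:54923949-54972612, minus strand) was at 684, 563 and 739 normalized counts in *Nedd4l* fl/fl VillinCre colon and 543, 474 and 545 in littermates, separate sets in which replicate 2 was lowest in each. This gave a log2 fold change of 0.34 (SE 0.12, 95% interval 0.050 to 0.63, limma adjusted p = 0.314). *Nod2* (chr8:88647315-88688474, plus strand) was at 188, 182 and 259 against 179.7, 121 and 152 normalized counts. Here *Nedd4l* fl/fl VillinCre replicate 3 stood above the rest, and the other 2 lay just over littermate replicate 1. Its log2 fold change was 0.47 (SE 0.21, 95% interval −0.010 to 0.95, limma adjusted p = 0.362), and 0.31 without *Nedd4l* fl/fl VillinCre replicate 3. The level of *Nod2* relative to *Nod1* per length of exon overlapped between genotypes, from 0.278 to 0.355 in *Nedd4l* fl/fl VillinCre colon and from 0.259 to 0.335 in littermates.

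*Ripk2*, the kinase that both NOD receptors recruit, had the smallest p of the 13-gene NOD signaling list. It was at 426, 381 and 300.2 normalized counts in *Nedd4l* fl/fl VillinCre colon and 214, 296 and 201 in littermates, with no overlap and a log2 fold change of 0.64 (SE 0.19, limma adjusted p = 0.276). *Xiap*, the ubiquitin ligase that acts on RIPK2, was lower on average, at −0.19 (limma adjusted p = 0.596), and overlapped.

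*Nlrp3* was the lowest of the 10 per length in littermate colon. Its fold difference was the largest of the 10 over all 6 libraries, but not without *Nedd4l* fl/fl VillinCre replicate 1, where that of *Tlr2* (0.91) was larger. *Nlrp3* (ENSMUSG00000032691, chr11:59541568-59566956, plus strand) was at 116, 24.3 and 46.4 normalized counts in *Nedd4l* fl/fl VillinCre replicates 1 to 3 and at 19.8, 17.99 and 19.0 in littermates. The littermates were almost equal, whereas the *Nedd4l* fl/fl VillinCre libraries were spread from just above them, in replicate 2, to several times their level, in replicate 1. Means of 62.2 ± 47.8 and 18.9 ± 0.881 (SD, n = 3 each) had a ratio of 3.29, and the log2 fold change was 1.39 (SE 0.52, 95% interval 0.19 to 2.59, limma adjusted p = 0.317), which 1.34% of tested genes exceeded. It was 0.80 without *Nedd4l* fl/fl VillinCre replicate 1 and 1.90 without replicate 2 (adjusted p = 0.459 and 0.0886). The partners of NLRP3 were abundant and differed little. *Casp1*, which cuts pro-IL-1β, was at 0.12 with a narrow separation, and *Pycard*, the adaptor ASC, at −0.069 and *Nek7* at 0.10 overlapped, with limma adjusted p-values from 0.454 to 0.734. The substrate *Il1b* was at 993, 255 and 424 normalized counts in *Nedd4l* fl/fl VillinCre colon against 113, 72.0 and 91.9, the same order of libraries as *Nlrp3*, with a log2 fold change of 2.38 (limma adjusted p = 0.211).

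NLRP6 is known as an epithelial NOD-like receptor of the gut. *Nlrp6* (chr7:140920902-140929192, plus strand) was at 3263, 4421 and 4359 normalized counts in *Nedd4l* fl/fl VillinCre colon and at 3117, 4238 and 4328 in littermates. Replicate 1 was lowest in both genotypes and the sets overlapped closely. The log2 fold change was 0.046 (SE 0.17, 95% interval −0.35 to 0.44, limma adjusted p = 0.916), and its sign turned without *Nedd4l* fl/fl VillinCre replicate 2 or 3 or littermate replicate 1, at −0.031, −0.020 and −0.11.

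**Figure D2:**
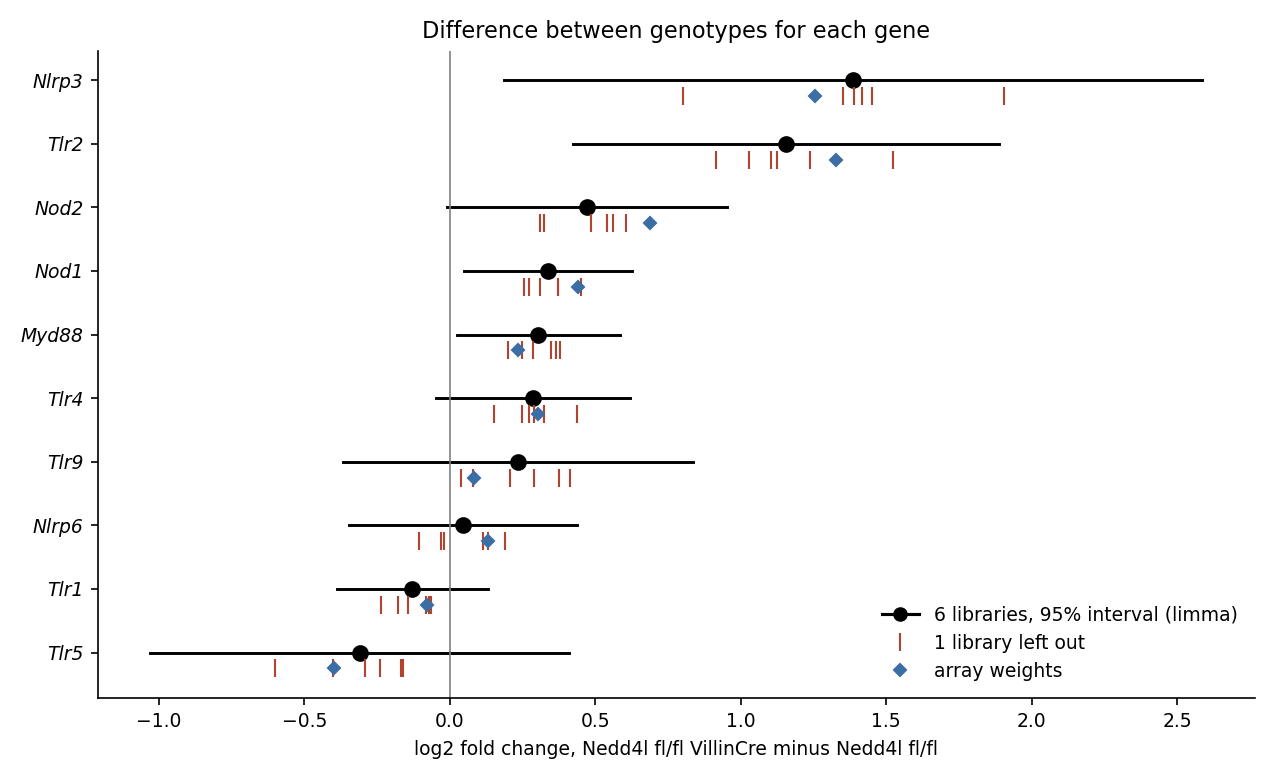
Log2 fold change on the log2(normalized count + 1) scale (x axis, *Nedd4l* fl/fl VillinCre minus *Nedd4l* fl/fl) for each gene (y axis): black points and lines are the limma estimate and 95% interval from 6 libraries, red ticks the estimates with 1 library left out, blue diamonds those with library weights. *Nlrp3*, *Tlr2*, *Nod1* and *Myd88* have intervals above 0, and the estimates of *Nlrp6* fall on both sides of 0.

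Per kb of exon, littermate levels spanned from *Nlrp6* at 766 ± 133 normalized counts per kb (SD, n = 3) to *Nlrp3* at 4.66 ± 0.217. Between them came *Tlr1* (502 normalized counts per kb), *Myd88* (227), *Tlr4* (109), *Nod1* (103), *Tlr2* (71.2), *Nod2* (30.1), *Tlr9* (25.5) and *Tlr5* (9.47). Neighbours in this order were separated in every littermate library except *Tlr4* from *Nod1* and *Nod2* from *Tlr9*. In *Nedd4l* fl/fl VillinCre colon the first 3 kept their places, at 790, 457 and 282 normalized counts per kb. *Tlr2*, at 168 ± 65.5, came next, before *Tlr4* (134) and *Nod1* (130.3), although its libraries overlapped those of *Tlr4*, as those of *Tlr4* did those of *Nod1*. *Nlrp3*, at 15.3 ± 11.8, stood above *Tlr5* (7.34), and the libraries of these 2 overlapped, as did those of *Tlr9* (30.1) with both *Nod2* (41.8) and *Nlrp3*.

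**Figure D3:**
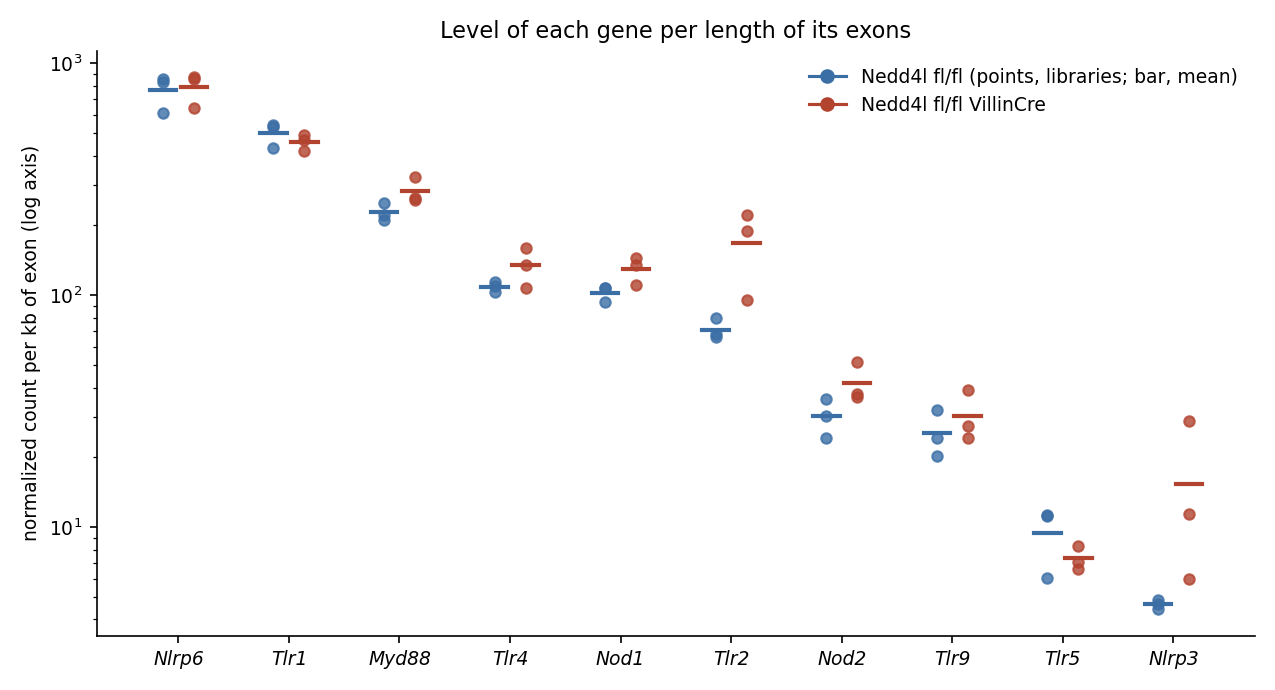
Level of each gene as normalized counts per kb of exon (y axis, log scale) in *Nedd4l* fl/fl libraries (blue points) and *Nedd4l* fl/fl VillinCre libraries (red points), with bars at the means, ordered by the littermate mean. *Tlr2* moves from 71.2 to 168 and *Nlrp3* from 4.66 to 15.3 normalized counts per kb, while *Nlrp6* and *Tlr1* stay the most abundant.

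The 3 *Nedd4l* fl/fl VillinCre libraries did not differ from littermates to the same degree. Of the 10 genes, 5 were highest in replicate 1 and 7 lowest in replicate 2, and *Tlr2*, *Tlr4*, *Tlr9* and *Nlrp3* shared the order of replicates 1, 3 and 2. *Nedd4l* itself ran the other way, lowest in replicate 1 and highest in replicate 2. Against the littermate mean on the log2 scale, *Tlr2* was at 1.64, 0.42 and 1.41 and *Nlrp3* at 2.56, 0.35 and 1.25 in replicates 1 to 3.

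Markers of other cell types were compared in the same libraries. Over all tested genes 50.2% had a higher mean. An unadjusted limma p under 0.05 was found for 6.91% in the higher and 7.08% in the lower direction. Of 10 neutrophil markers 9 were tested and 8 of these had a higher mean in *Nedd4l* fl/fl VillinCre colon, 4 of them with an unadjusted p under 0.05. Their summed level overlapped, from 3033 to 10520.1 normalized counts against 2994 to 3254. *Ly6g* made up most of that sum in every library except *Nedd4l* fl/fl VillinCre replicate 1. *Ly6g* ran the other way, at 2486, 2832 and 2200.1 against 2829, 3136 and 3064 normalized counts, and was the 1 marker with an unadjusted p under 0.05 in the lower direction (log2 fold change −0.27, limma adjusted p = 0.329). Without *Ly6g*, a sum formed after the values had been seen, the neutrophil markers were at 8034, 200.1 and 1169.7 normalized counts in *Nedd4l* fl/fl VillinCre replicates 1 to 3 and at 165, 118 and 147 in littermates, the order of *Tlr2* and *Nlrp3*. Among them *Cxcr2* was listed at 0 in 2 littermates, *Mmp8* in 1, and *Ngp* in 1 littermate and in *Nedd4l* fl/fl VillinCre replicate 2. All 13 monocyte and macrophage markers had a higher mean, 5 with an unadjusted p under 0.05, and their sums were separated, from 12353 to 14189.7 against 7563 to 11823 normalized counts, with replicate 2 the highest. Sums of fibroblast markers were separated too, from 21388 to 43312 against 10935 to 18526, with 7 of 7 markers higher. B cell markers (7 of 7 tested higher on average) and T and NK cell markers (3 of 7) overlapped in their sums, as did epithelial ones (4 of 10). So did the sums for pan-leukocyte (5 of 5 higher on average), endothelial (4 of 5), dendritic cell (1 of 7), plasma cell (2 of 6), goblet cell (2 of 6), smooth muscle (0 of 5) and enteric neuron and glia markers (1 of 4). Of the marker sums, that of neutrophils without *Ly6g* had the replicate order 1, 3 and 2 with the genotypes apart, as did that of fibroblasts. The part of these markers in the receptor differences was not tested.

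**Figure D4:**
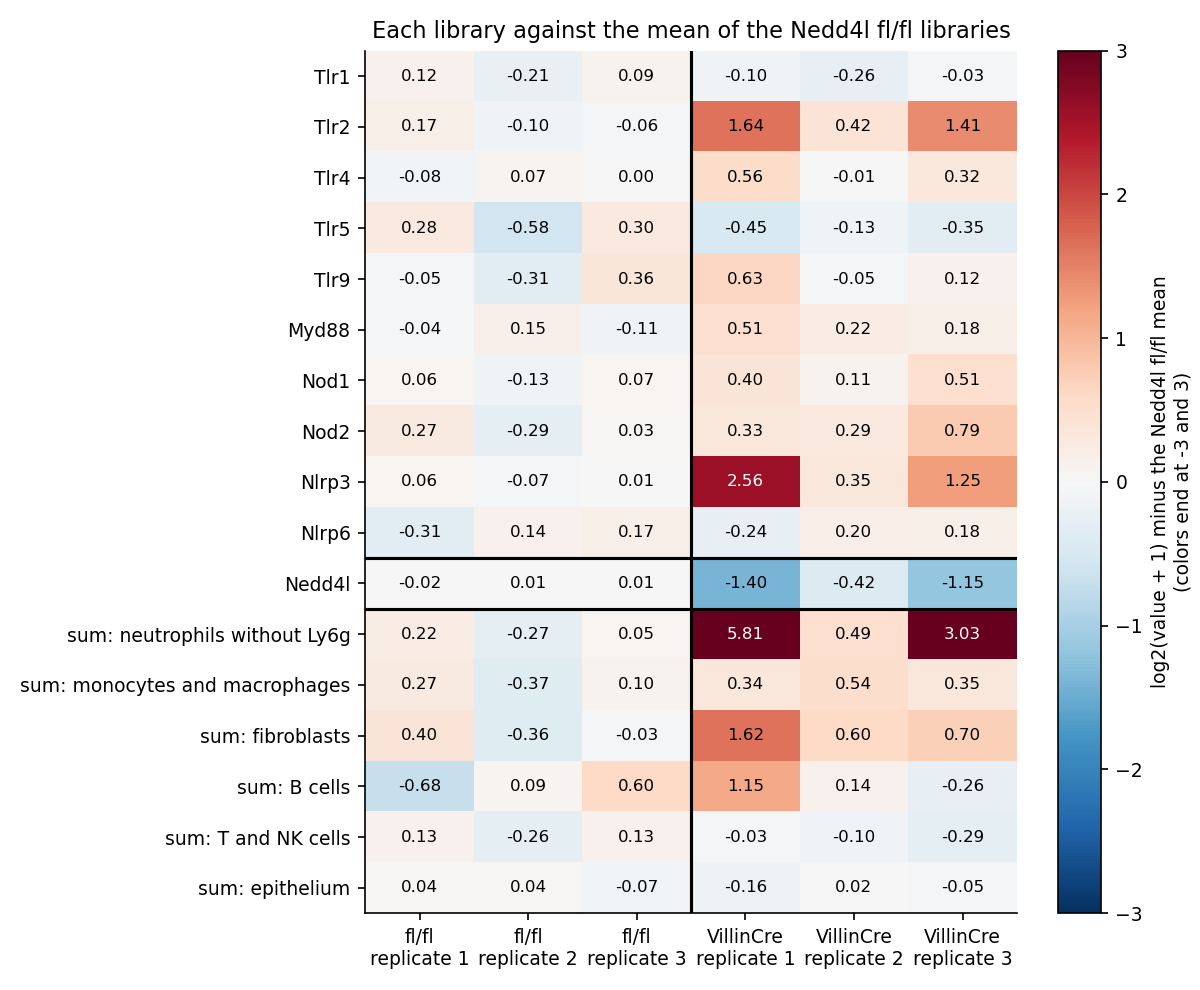
Log2(normalized count + 1) of each library minus the littermate mean (color and printed value, colors ending at −3 and 3) for the 10 genes, *Nedd4l* and summed cell type markers (rows) in the 6 libraries (columns). *Tlr2* and *Nlrp3* are reddest in *Nedd4l* fl/fl VillinCre replicates 1 and 3, as is the neutrophil marker sum without *Ly6g* (a marker that was lower), which reaches 5.81 in replicate 1.

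Across the 6 libraries the log values of *Tlr4* and *Nlrp3* (Pearson's r = 0.958), *Tlr2* and *Nlrp3* (0.945), *Tlr2* and *Nod1* (0.938), *Nod1* and *Nod2* (0.901) and *Tlr2* and *Tlr4* (0.900) ran most closely together. The lowest value among the 10 genes was that of *Tlr5* and *Myd88* (−0.754). These are descriptions over 6 points, which include any difference between genotypes. Of the *Nedd4l* fl/fl VillinCre libraries, *Tlr2*, *Tlr4* and *Nlrp3* were highest in replicate 1, and *Nod1* and *Nod2* in replicate 3. Among 219 genes of the pathway and marker lists, the nearest to *Tlr2* were *Cyld* (0.990), a deubiquitinase, *Eif2ak2* (0.987), the double-stranded RNA kinase PKR, and *Tmem173* (0.985), which encodes STING. For *Tlr4* they were *S100a8* (0.997), *Rel* (0.985) and *Cxcl2* (0.983), and for *Nlrp3* *Mmp9* (0.994), *S100a9* (0.993) and *Fpr2* (0.982), of which *S100a8*, *S100a9* and *Mmp9* were among the neutrophil markers. The nearest to *Nod1* were *Naip2* (0.985), the monocyte chemokine receptor *Ccr2* (0.975) and *Eif2ak2* (0.967), and to *Nod2* *Ccr2* (0.957), *Casp1* (0.913) and *Naip2* (0.871). *Myd88* was nearest to *Cxcr2* (0.950), *Ripk2* (0.945) and *Traf6* (0.944), *Tlr9* to the B cell gene *Cd180* (0.965), *Cd3d* (0.941) and *Pik3ap1* (0.938), and *Tlr1* to *Ccr9* (0.986), *Cd8a* (0.902) and *Tab1* (0.894). *Tlr5* was nearest to *Clec9a* (0.950), *Irf4* (0.930) and *Tnip1* (0.905). *Clec9a*, a marker of cross-presenting dendritic cells, was low, at 12.4 to 28.0 normalized counts. *Ccr9*, the nearest to *Tlr1* and also low at 16.6 to 46.9, was the only other dendritic cell marker among the matches of the 10 genes. *Nlrp6* had the weakest matches, *Mavs* (0.881), *Peli1* (0.866) and *Il18* (0.815). Each match is the highest of 219 values over 6 libraries, where high values also arise between unrelated genes, so no cell type can be read from it.

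Around the 10 genes, 10 lists of the sensing pathways gave 0 genes with a limma adjusted p under 0.05, and their counts at an unadjusted p under 0.05 are read against 6.91% of all genes in the higher and 7.08% in the lower direction. Of the 6 other TLRs tested 5 had a higher mean, at a median of 0.29 that was 0.069 without *Nedd4l* fl/fl VillinCre replicate 1 and 0.095 without littermate replicate 2, and 1 had an unadjusted p under 0.05, *Tlr3*, the endosomal receptor for double-stranded RNA, at 874, 654 and 764 against 595, 629 and 572 normalized counts (log2 fold change 0.34, limma adjusted p = 0.306). *Tlr12* was the 1 with a lower mean, at −0.25 (limma adjusted p = 0.615), and *Tlr11* was below the filter, at 2.88 to 14.4 normalized counts in all 6 libraries. Of 9 co-receptors and chaperones 6 had a higher mean, with an unadjusted p under 0.05 for 1 in each direction. These were *Ly86*, the partner of the TLR-like CD180, at 0.71 (limma adjusted p = 0.296), and *Cnpy3*, a folding factor of TLRs, at −0.25 (0.349).

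Of 18 TIR adaptors, IRAKs and TRAFs 11 had a higher mean, with a median log2 fold change of 0.078, and the 1 with an unadjusted p under 0.05 was lower, *Tab1*, a subunit of the TAK1 kinase complex, at −0.31 (limma adjusted p = 0.342). Of 13 brakes on TLR signaling 8 had a higher mean and 4 of these an unadjusted p under 0.05, led by *Nlrc5* at 0.43 (limma adjusted p = 0.310), while *Nlrx1* at −0.20 (0.530) had the smallest p of the lower ones. Below the filter, *Nlrp12* was listed at 0 in all 3 littermates and at 26.8, 1.11 and 10.3 normalized counts in *Nedd4l* fl/fl VillinCre colon, and *Sarm1* was at 3.95 to 8.63. The NOD signaling list had 11 of 12 tested genes higher on average, 3 with an unadjusted p under 0.05. The inflammasome list had 16 of 21, 1 with an unadjusted p under 0.05 (*Il1b*), at a median of 0.084 that was 0.044 without *Nedd4l* fl/fl VillinCre replicate 1 and 0.048 without replicate 3. NF-κB and IRF factors were higher on average in 15 of 19, led by *Irf5* at 0.43 (limma adjusted p = 0.300), and 2 had an unadjusted p under 0.05, and *Ikbke* at −0.20 (0.510) had the smallest p of the lower ones.

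Of 9 RNA and DNA sensors tested 6 had an unadjusted p under 0.05 in the higher and 1 in the lower direction. *Ddx58*, which encodes the RNA sensor RIG-I, was at 694, 593 and 698 against 452, 439 and 504 normalized counts (log2 fold change 0.51, limma adjusted p = 0.192), whereas *Mb21d1*, the DNA sensor cGAS, was at 142, 138 and 122 against 179, 291 and 179 (−0.65, limma adjusted p = 0.296). The genotypes did not overlap in either gene. Of 11 C-type lectin, formyl peptide and peptidoglycan receptors 4 had an unadjusted p under 0.05, all higher, with *Clec7a*, the β-glucan receptor Dectin-1, at 157, 122 and 149.6 against 69.1, 42.3 and 86.9 normalized counts (1.15, limma adjusted p = 0.213), and *Pglyrp2* at −0.20 (0.753) the smallest p of the lower ones. Of 13 NF-κB target cytokines tested 12 had a higher mean and 5 an unadjusted p under 0.05. Their median of 1.65 ran from 1.22 to 2.18 with 1 library left out. Summed over the list, the cytokines were at 3010, 662 and 1351 normalized counts against 585, 473 and 507, with *Nedd4l* fl/fl VillinCre replicate 2 nearest to the littermates. *Cxcl3* and *Csf3* were listed at 0 in littermate replicates 1 and 3, and *Il6*, *Il12b* and *Il23a* were below the filter. *Ccl2*, which attracts monocytes, had the smallest p of the higher ones (2.34, limma adjusted p = 0.169) and *Ccl5* of the lower ones (−0.76, 0.370).

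**Figure D5:**
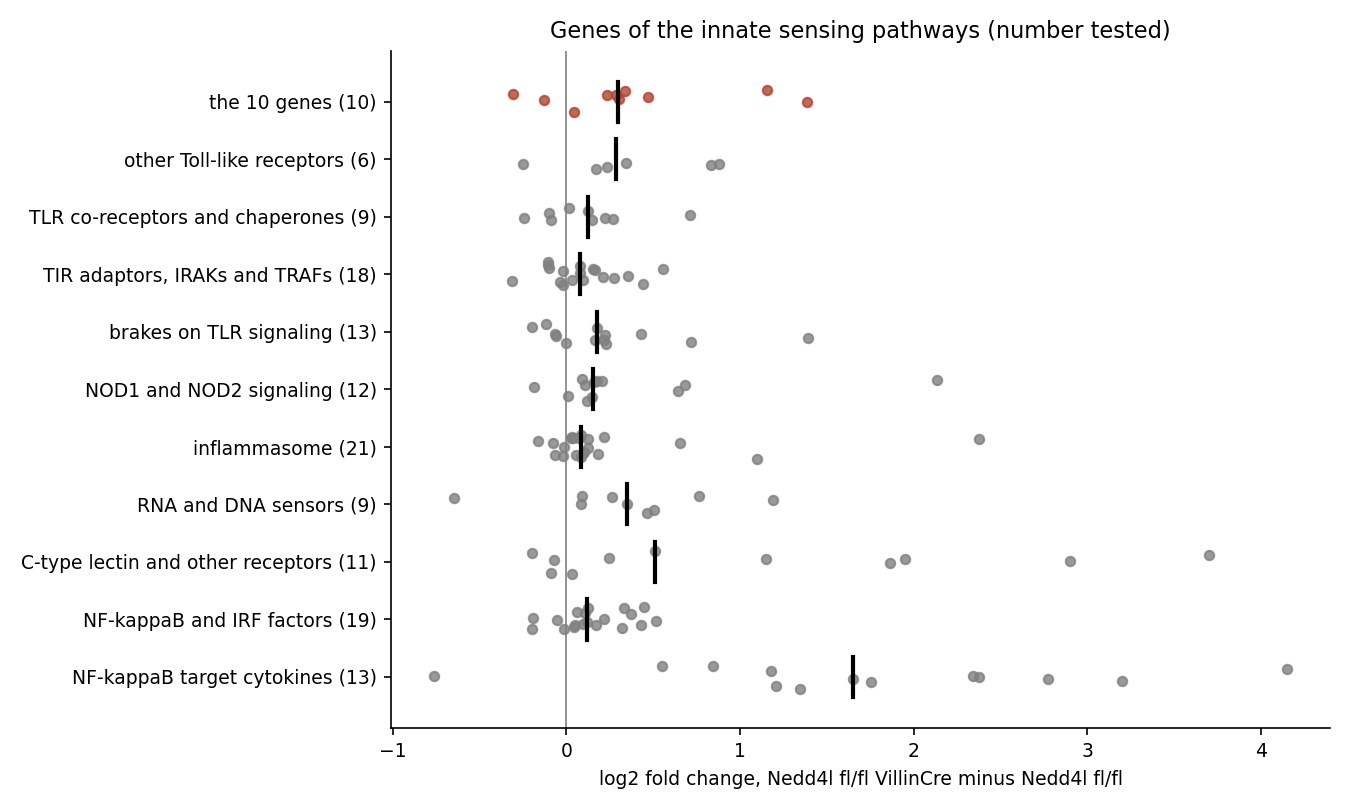
Log2 fold change (x axis, *Nedd4l* fl/fl VillinCre minus *Nedd4l* fl/fl) of each tested gene (points, spread vertically for legibility) in the 10 genes (red) and the 10 pathway lists (grey), with black bars at the medians and the number tested in parentheses. Medians lie between 0.078 and 0.51 except for the cytokine targets at 1.65.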

How the data were processed

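RNA was extracted with TRIzol from the colon of 6 mice and made into libraries with a NEBNext Ultra kit. Per the submitters' processing notes, HISAT2 2.0.5 aligned the reads and featureCounts 1.5.0-p3 counted them, and the notes name hg18, a human build, although the genes are mouse genes with GRCm38 coordinates. The authors deposited normalized counts, a signal made by scaling each library's read counts with its own size factor, and the tool that gave the size factors is not given in the sources used here. The table's genotype means and its own fold changes and p-values were not used, and 0 further library columns were present. Coordinates and exon lengths of all 10 genes equal those of GENCODE release M21.

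Genes whose mean normalized count was at least 10 entered the test on log2(value + 1), in which limma 3.58.1 (trend and robust settings, R 4.3.3) compared genotypes with Benjamini-Hochberg adjustment over 16246 genes at a threshold of 0.05. The pseudocount makes fold changes of low genes too small. No count model was fitted. On simulated data, with 200 of 16246 genes changed in 20 runs of this comparison, 51.7% of those set to a log2 change of 1 and 80.4% of those set to 2 were recovered, and 4.59% of calls were false. The simulated noise was independent between genes and had the same SD in all libraries. The real libraries were unequal, with weights from 0.414 to 4.39, so these rates need not hold for them. Exact permutation tests over libraries were two-sided. The 14 alternatives were other pseudocounts, filters and normalizations, library weights, a replicate block and each library left out. The 10 genes, the lists, the motifs and the named genes were chosen with earlier results of these data known. Named were the 10 genes, 14 fixed partners, the gene with the smallest p in each direction of each list, and the 3 listed genes most like each of the 10, and other genes were named after their values were seen. Promoter windows are from RefSeq. Python 3.11.15 and matplotlib 3.10.9 made the figures.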

Additional observations from a re-analysis of the deposited data

How the results depend on the processing

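With limma on all 6 libraries 0 genes were called over the whole table and 2273 had an unadjusted p under 0.05. Without a filter on low values 7 genes were called higher and 23 lower, with library weights 262 and 369, and with 1 library left out 0 to 70 higher and 0 to 52 lower, the most without *Nedd4l* fl/fl VillinCre replicate 2. *Tlr2* passed the threshold with library weights (log2 fold change 1.33), which were by far the largest for *Nedd4l* fl/fl VillinCre replicate 3. It also passed without *Nedd4l* fl/fl VillinCre replicate 2, and ranged from 0.91 to 1.52 with 1 library left out. *Nlrp6* turned to −0.031, −0.020 and −0.11 without *Nedd4l* fl/fl VillinCre replicate 2, replicate 3 and littermate replicate 1, within a range from −0.11 to 0.19. The other 8 genes kept their direction and stayed above the threshold in every alternative run, 14 for each, or 13 for *Tlr5* and *Nlrp3*, which a filter at a mean of 50 removes. With 1 library left out, list medians ranged from −0.011 to 0.19 for co-receptors and chaperones, from 0.049 to 0.096 for adaptors, IRAKs and TRAFs, from 0.017 to 0.29 for brakes, from 0.23 to 0.86 for C-type lectin and other receptors, from 0.069 to 0.47 for other TLRs and from 0.044 to 0.12 for the inflammasome, against 0.19 to 0.41 for the 10 genes, and library weights gave 0.044 for brakes. The cause was not tested. Normalization by TMM factors or quantiles moved the median of all genes by at most 0.019.

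Same-numbered libraries of the 2 genotypes did not deviate together (correlations −0.029, −0.090 and −0.056, against −0.024 to 0.064 for other pairs). With so few libraries this shows no pairing by number but cannot exclude it. With a replicate block 0 genes were called, and *Tlr2* stayed at 1.15 with an adjusted p of 0.231. Count models on recovered reads, planned as alternatives, were not run. Depth limits *Nlrp3* and *Tlr5* most, the genes with the fewest normalized counts of the 10.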
